A study of Mus musculus with 3 samples.

Results

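The lambda light chain locus (Igl) and the surrogate light chain genes Igll1 and Vpreb1 were examined for 2 histone marks in mouse precursor B-cell leukaemia cells. Members were all deposited peaks that overlapped chromosome 16 from 18990000 to 19270000 (Igl) or from 16820000 to 16900000 (Igll1 and Vpreb1), on the mouse build mm9. This choice by position gave 27 peaks of 47610 in all: 22 H3K27ac and 0 H3K4me3 peaks at Igl, and 2 H3K27ac and 3 H3K4me3 peaks at the surrogate light chain genes. The cells, grown in culture without stimulation or treatment, model acute lymphoblastic leukaemia and carry Bcr-Abl, the fused kinase whose constant activity drives them. Chromatin immunoprecipitation and sequencing (ChIP-seq) was done once for histone H3 acetylated at lysine 27 (H3K27ac), once for histone H3 trimethylated at lysine 4 (H3K4me3) and once with control immunoglobulin (IgG). The IgG sample was not analysed here. With 1 library per mark there was no replicate error, no test between groups could be made, and sequencing depth was unknown.

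Precursor B cells first rearrange the immunoglobulin heavy chain and only later a light chain, kappa or lambda. Before a light chain exists, the heavy chain pairs with the surrogate light chain, which is made of the Igll1 product (lambda5, resembling a lambda constant and joining region) and a Vpreb product (resembling a variable region). The resulting pre-B-cell receptor signals that the heavy chain works. H3K4me3 marks promoters, usually of active genes, and H3K27ac marks active promoters and enhancers. The mouse Igl locus is small beside the kappa and heavy chain loci and holds groups of variable, joining and constant segments that arose by duplication. In the RefSeq table of the assembly GRCm38.p6 it lists 3 variable, 5 joining and 4 constant segments, of which 2 joining segments and 1 constant segment are pseudogenes. Their order on the chromosome is Iglc1, Iglj1, Iglc3, Iglj3p, Iglj3, Iglv1, Iglc4, Iglj4, Iglc2, Iglj2, Iglv3 and Iglv2, with the coding genes Hira before and Olfr164 after them. Igll1 and Vpreb1 stand next to each other among coding genes, followed by Top3b, which encodes a DNA topoisomerase, and Ppm1f, which encodes a protein phosphatase. Only gene order was taken from that table: no annotation of mm9 was used, so no peak was assigned to a start site or to a segment.

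The promoter sequences of Igll1 and Vpreb1 are shown because the window that holds these genes carried one of the widest H3K4me3 peaks of the list. Both are from RefSeq on GRCm38.p6, cover the 250 bases before the start site and are written 5′ to 3′ along the gene (minus strand; Igll1 at chr16:16863986-16864235, Vpreb1 at chr16:16869256-16869505). These positions belong to another assembly and cannot be set against the mm9 peaks. Capitals mark every match to CANNTG, the E box, on either strand.
Igll1: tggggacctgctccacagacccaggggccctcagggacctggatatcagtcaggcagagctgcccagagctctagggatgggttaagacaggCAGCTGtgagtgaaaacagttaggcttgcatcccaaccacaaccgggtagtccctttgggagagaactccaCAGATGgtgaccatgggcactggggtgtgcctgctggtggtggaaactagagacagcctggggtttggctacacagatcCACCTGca
Vpreb1: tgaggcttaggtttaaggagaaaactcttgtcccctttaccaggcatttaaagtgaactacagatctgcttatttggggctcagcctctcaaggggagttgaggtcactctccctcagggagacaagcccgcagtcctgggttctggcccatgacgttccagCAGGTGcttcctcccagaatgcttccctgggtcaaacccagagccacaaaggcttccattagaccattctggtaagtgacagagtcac

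E boxes are the sites to which E proteins bind, transcription factors that are required for the B lineage. Igll1 held 3 E boxes, which began 158, 87 and 8 bases before the start site, and Vpreb1 held 1, which began 88 bases before it. The motif CANNTG was present in 66.2% of the 32851 RefSeq promoters of the same length, so its presence in both is common. CAGGTG, a form of the E box known for E proteins, was found in both promoters (at 8 bases in Igll1, where it reads CACCTG on the gene's strand, and at 88 bases in Vpreb1), against 17.2% of all promoters. These matches are among the E boxes already counted. CCCNNGGG, the core of the site of the B-lineage factor EBF, matched once in Igll1, 231 bases before the start (CCCAGGGG), and 0 times in Vpreb1, against 11.8% of all promoters. GGGAA, a core bound by Ikaros, matched 0 times in Igll1 and once in Vpreb1 (66 bases before the start, against 56.2% of all promoters). GAGGAA, a core bound by PU.1 and Spi-B, also matched 0 times in Igll1 and once in Vpreb1 (81 bases before the start, against 23.3% of all promoters). The TATA box TATAAA was in neither, against 12.4% of all promoters. All motifs were sought on both strands, and a match describes letters, not binding. Both promoters were poor in CG dinucleotides, with 1 in Igll1 and 2 in Vpreb1 against a median of 6 over all promoters. At most 1 was held by 18.8% of all promoters, and at most 2 by 29.0%. Their content of G and C was 58.0% and 52.0%, against a median of 52.4%.

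Vpreb1 has a close copy, Vpreb2, at another place on the same chromosome. The part of the promoters that can be aligned without gaps is shown because sequencing reads from such copies are hard to tell apart. It covers 106 bases before the start site in Vpreb1 (GRCm38.p6, chr16:16869256-16869361, minus strand) and a stretch before the start site of Vpreb2 (chr16:17980315-17980420, plus strand). Capitals mark the bases that differ.
Vpreb1: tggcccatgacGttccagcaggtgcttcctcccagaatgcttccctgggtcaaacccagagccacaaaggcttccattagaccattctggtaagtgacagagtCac
Vpreb2: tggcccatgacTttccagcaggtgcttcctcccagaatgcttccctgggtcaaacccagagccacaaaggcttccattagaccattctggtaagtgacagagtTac

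Of the 106 aligned bases 104 were identical (98.1%), with an unbroken identical run of 91 bases. The sources used here do not give how reads that match more than 1 place were treated. The extent of any peak over this sequence is therefore uncertain. Identity among the Igl segments was not measured.

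The surrogate light chain window carried both marks, most of it in 1 broad stretch. A single H3K27ac peak of 20098 bp (16854385 to 16874482) spanned H3K4me3 peaks of 13642 bp (16859497 to 16873138) and 896 bp (16856460 to 16857355). The 13642 bp peak was the second widest of the 18142 H3K4me3 peaks, and the 20098 bp peak was number 26 by width among the 29468 H3K27ac peaks. Both had a score of 3100. Scores were assigned to peaks by the authors, are not defined in the files, and are tied at 3100 for most high-scoring peaks, a value called the ceiling here. The ceiling was reached or passed by 24.1% of H3K27ac and 50.3% of H3K4me3 peaks, so width separates these peaks from the rest of the list and the score does not. The 896 bp H3K4me3 peak was weak, with a score of 105 and a width at percentile 20.5 of its list.

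**Figure D1:**
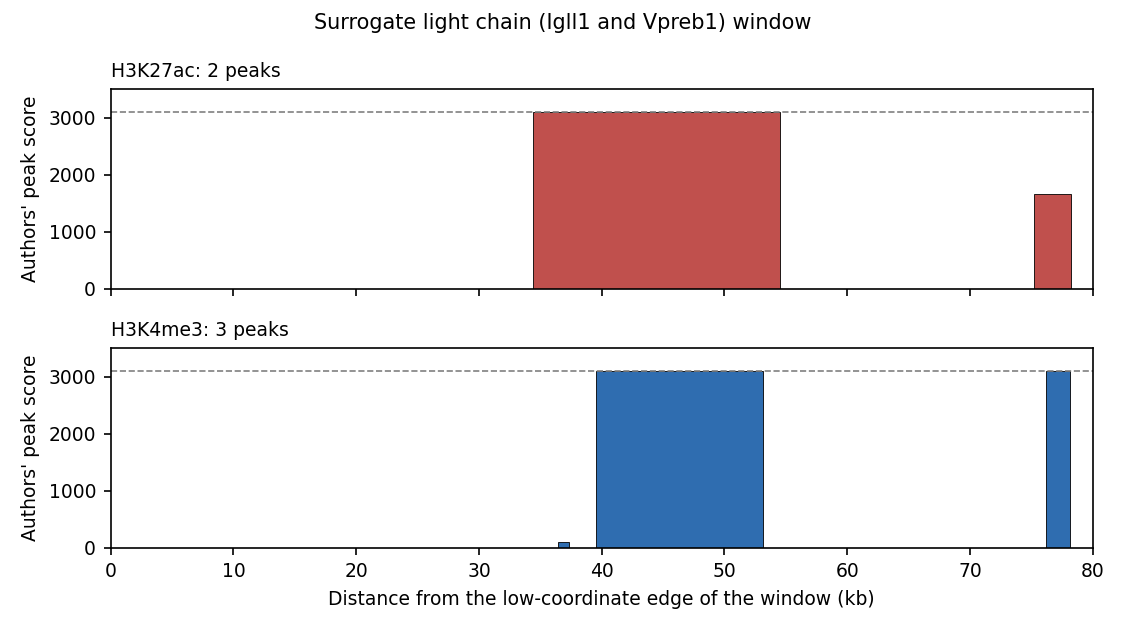
Peaks in the Igll1 and Vpreb1 window, H3K27ac above and H3K4me3 below. Each bar spans 1 peak along the window (distance from its low-coordinate edge, kb) and its height is the authors' score, with the ceiling of 3100 as a dashed line; the broad H3K4me3 peak of 13642 bp lies inside the H3K27ac peak of 20098 bp.

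Acetylation extended past H3K4me3 at both ends of the broad stretch. The H3K27ac peak began 2075 bp before the first H3K4me3 peak and ended 1344 bp after the broad one, and the H3K4me3 peaks were 2141 bp apart. H3K4me3 covered 14538 bp, or 72.3%, of the H3K27ac peak, which left 5.56 kb with acetylation alone. The H3K27ac peak was 1.47 times as wide as the broad H3K4me3 peak it contains. Across all 9 H3K4me3 peaks wider than 10 kb, each of which overlapped H3K27ac, the width of overlapping H3K27ac was 1.00 to 2.05 times that of H3K4me3 with a median of 1.23, so the stretch in the surrogate light chain window lay within this range. The median of this ratio over all H3K4me3 peaks that overlapped H3K27ac was 1.05. In the whole list 589 H3K27ac peaks held 2 or more H3K4me3 peaks, as this one did. Of the 26 H3K27ac peaks at least as wide as this one, 23 overlapped H3K4me3.

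A smaller site with both marks lay near the high-coordinate edge of the window, after a gap of 20.8 kb without H3K27ac. There, an H3K4me3 peak of 1951 bp (16896219 to 16898169, score 3100) lay inside an H3K27ac peak of 2990 bp (16895241 to 16898230, score 1650). Acetylation reached 978 bp past H3K4me3 on the low-coordinate side and 61 bp on the other. Its widths were at percentile 54.6 of the H3K4me3 list and 79.5 of the H3K27ac list, nearer to the middle of each list than the broad pair. Which gene this site belongs to was not determined. In the gene order Top3b and Ppm1f follow Vpreb1, so the site may lie at a gene that is no part of the surrogate light chain. The broad stretch was likewise assigned to no gene, and whether it also covers a neighbour such as Top3b was not determined.

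Both H3K27ac peaks of the window overlapped H3K4me3, against 52.3% of all H3K27ac peaks, and all 3 H3K4me3 peaks overlapped H3K27ac, against 86.1% of all H3K4me3 peaks. With so few peaks the exact 95% binomial interval ran from 15.8 to 100% for the first share and from 29.2 to 100% for the second, which is too wide to compare either share with its list. Such intervals reflect counting error alone and take each peak as a separate observation. H3K27ac covered 28.9% of it and H3K4me3 20.6%, against 2.57% and 1.39% of the span of the chromosomes between their first and last H3K27ac peaks. Dividing the chromosomes into 32968 tiles of the same length, 80 kb, gave 253 tiles (0.767%) with at least as much H3K27ac, 46 (0.14%) with at least as much H3K4me3 and 23 with at least as much of both. These percentages are over all tiles, of which 11457 held any H3K27ac peak. The window was drawn around its genes while the tiles fall where they may, so these counts describe and do not test. The marked stretch was isolated on its low-coordinate side, where the nearest H3K27ac peak was 495 kb and the nearest H3K4me3 peak 497 kb away.

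The Igl window was rich in acetylation and held no H3K4me3 peak. The 22 H3K27ac peaks covered 98.9 kb, or 35.3% of the 280 kb. None of them overlapped H3K4me3, against 52.3% of H3K27ac peaks over the whole list. Since the window held no H3K4me3 peak, this was fixed for all 22 neighbouring peaks together. It is an observation of a single locus, and a counting limit over 22 peaks does not measure its error. The absence of a called peak is not an absence of the mark, since a signal below the authors' threshold is not in the list. With no H3K4me3 peak in the window, the lack of overlap holds for any subset of its peaks. The Igl peaks included 6 that reached the ceiling and 7 of 4000 bp or more. Of the 29468 H3K27ac peaks in the whole list, 7106 were at or above the ceiling and 3202 were of 4000 bp or more. Of these, 90.8% and 77.3% overlapped H3K4me3.

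**Figure D2:**
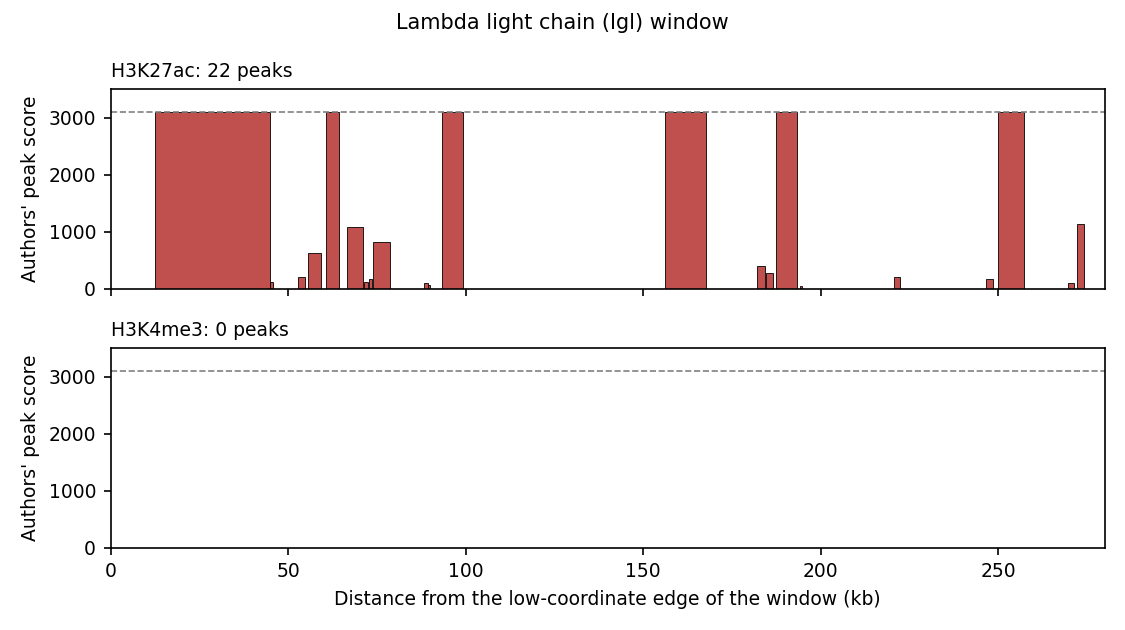
Peaks in the Igl window, H3K27ac above and H3K4me3 below. Each bar spans 1 peak along the window (distance from its low-coordinate edge, kb) and its height is the authors' score, with the ceiling of 3100 as a dashed line; 6 of the 22 H3K27ac peaks reach it, and the H3K4me3 panel is empty.

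The acetylated peaks at Igl formed 2 blocks separated by 57.0 kb without a peak. The low-coordinate block (19002499 to 19089169) held 12 peaks with a summed width of 62.0 kb, which filled 71.5% of its 86.7 kb. The high-coordinate block (19146124 to 19264167) held 10 peaks with a summed width of 37.0 kb, which filled 31.3% of its 118 kb. Each block had 3 peaks at the ceiling, of 41.9 kb in all in the first block and 24.9 kb in the second. The first block also held the widest peak at Igl.

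That peak, at the low-coordinate end of the first block, was 32378 bp wide (19002499 to 19034876) and made up 32.7% of the H3K27ac length at Igl. It was number 6 by width among all H3K27ac peaks and number 2 among the 14059 without H3K4me3. It ended 5 bp before the next peak, a weak one of 910 bp (19034882 to 19035791, score 109), so the boundary between them was set by the peak calling. The other ceiling peaks of this block measured 3652 bp (19050529 to 19054180) and 5872 bp (19083298 to 19089169), and the second of these closed the block. Between them lay peaks of 4572 bp (19056553 to 19061124, score 1081) and 4792 bp (19064016 to 19068807, score 822), which were wide for their list, at percentiles 92.0 and 92.9, without reaching the ceiling.

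The second block opened with a ceiling peak of 11467 bp (19146124 to 19157590), number 34 by width among H3K27ac peaks without H3K4me3. The remaining ceiling peaks there were 6055 bp (19177281 to 19183335) and 7345 bp (19239949 to 19247293) wide, at percentiles 96.1 and 97.7 of the list. The last peak of the locus, 2080 bp (19262088 to 19264167), scored 1140, the highest value at Igl below the ceiling. From it the next H3K27ac peak was 468 kb away. The block was discontinuous: it contained stretches without any peak of 14.4, 26.0, 24.3 and 12.4 kb.

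The 16 Igl peaks below the ceiling ranged from 510 to 4792 bp with a median of 1777 bp, against 1782 bp over all H3K27ac peaks and 1252 bp over those without H3K4me3. Their scores ran from 51.9 to 1140 with a median of 188, against 710 over all H3K27ac peaks, and 3 of the 16 scored above 710. The list medians of width and score include ceiling peaks, which the 16 leave out by choice. Over all 22 Igl peaks the median score was 335. Scores under 100 were given to 3 of the 22 Igl peaks and scores of 100 to 300 to 8. In the whole list these classes held 5226 and 5623 of the 29468 H3K27ac peaks. Over all 22 the median width was 2150 bp, and 14 were wider than the median of the list. Of these 22 peaks 27.3% reached the ceiling, against 24.1% of all H3K27ac peaks and 4.64% of the 14059 without H3K4me3. The ceiling peaks at Igl had a median width of 6700 bp, against 4900 bp for the 652 ceiling peaks without H3K4me3 in the whole list.

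**Figure D3:**
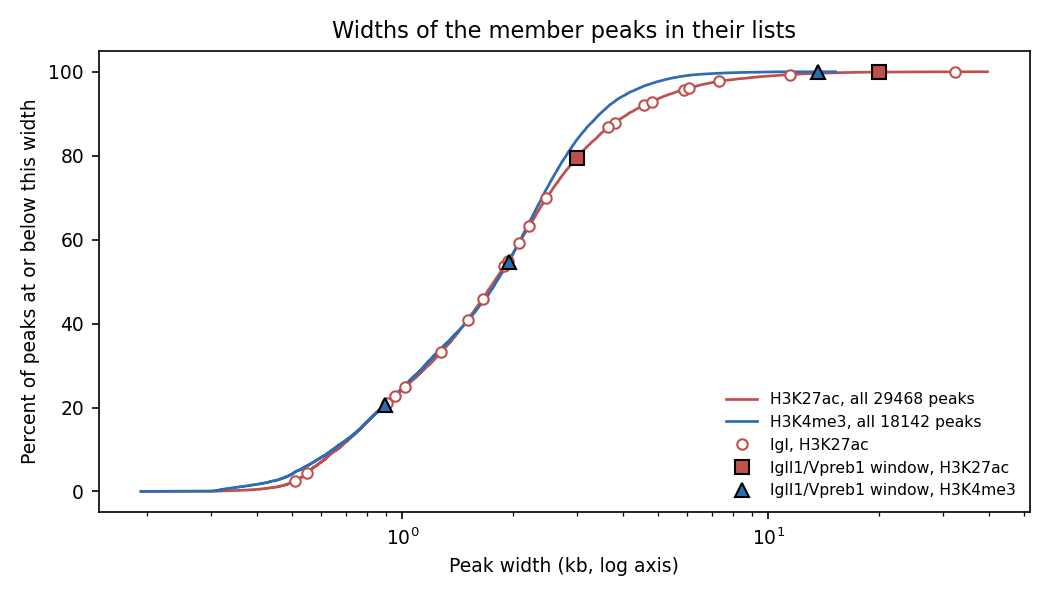
Widths of member peaks (kb, log axis) within the cumulative width distribution of each list (percent of peaks at or below a width); lines are all peaks, open circles Igl H3K27ac, squares and triangles the H3K27ac and H3K4me3 peaks of the Igll1 and Vpreb1 window. The Igl circles spread from percentile 2.58 to the top of the list, and the broad H3K4me3 peak of 13642 bp sits at the end of its curve.

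Peaks within 12.5 kb of each other were stitched, a step used to describe clusters of acetylation. Igl gave 5 stitched regions, none with H3K4me3. The first block stayed whole, and its 62.0 kb of summed peak width ranked 15 among all 16134 stitched regions and first among the 4881 without H3K4me3. The second block fell into 4 regions with summed widths of 11.5, 11.0, 1.66 and 12.9 kb, at ranks 998, 1080, 11430 and 811. With stitching at 5000 bp the widest region at Igl spanned 33.3 kb in place of 86.7 kb. In the surrogate light chain window the broad peak stood alone in its stitched region, at rank 327, and the smaller site at 6482.

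The nearest H3K4me3 peak was 123 kb from the first Igl peak on the low-coordinate side and 496 kb from the last on the other. The 22 peaks lay 123 to 383 kb from the nearest H3K4me3 peak, with a median of 202 kb, against a median of 17.1 kb for all H3K27ac peaks without H3K4me3. The locus thus sat in a stretch of 880 kb without H3K4me3 (18879500 to 19759733). Besides the Igl peaks this stretch held 2 H3K27ac peaks, of 2609 bp (18962238 to 18964846) and 751 bp (19732427 to 19733177). Its 24 peaks summed to 102 kb. Among 18057 stretches between neighbouring H3K4me3 peaks, of which 65.5% held no whole H3K27ac peak, it ranked 3 by H3K27ac length and 5 by number of peaks. By number of ceiling peaks, 6, it ranked 1 with no tie. By its own length it ranked only 611. A stretch on chromosome 12 (115618758 to 116262100), inside the heavy chain window described below, ranked 1 by H3K27ac length with 108 kb in 47 peaks. Another in that window ranked 5 with 67.0 kb, and one in the kappa window described below ranked 8 with 51.2 kb. Besides the stretch of Igl, the rest of the first 10 lay outside these loci.

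**Figure D4:**
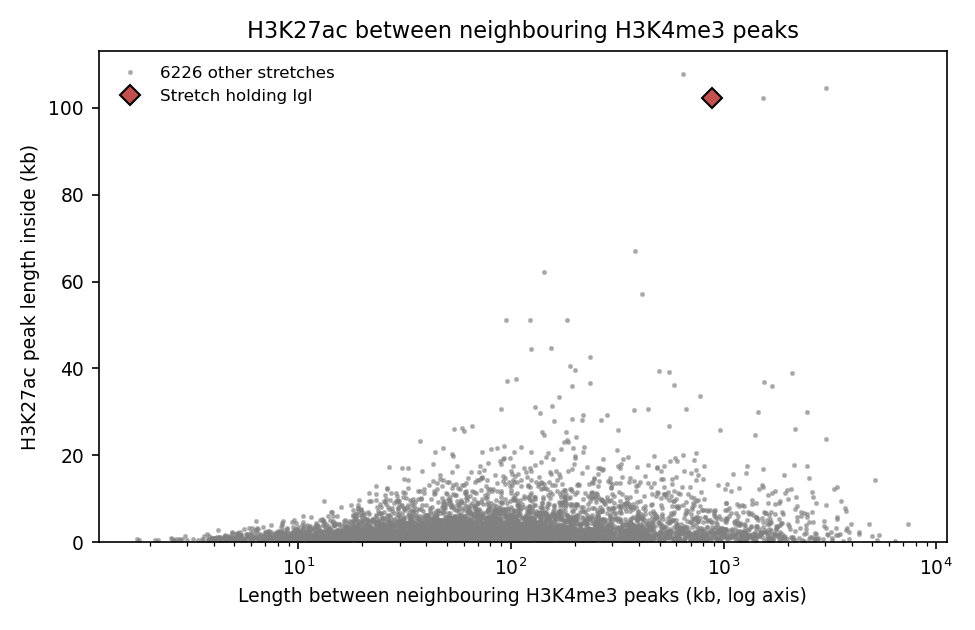
Summed width of H3K27ac peaks (kb) inside each stretch between neighbouring H3K4me3 peaks against the length of the stretch (kb, log axis); each grey point is 1 of 6226 other stretches with at least 1 H3K27ac peak, and the diamond is the stretch that holds Igl. The diamond, at 880 kb and 102 kb, is among 4 points above 100 kb.

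Tiles of 280 kb, the length of the Igl window, were counted in the same way. Of 9428 tiles, 5388 held any H3K27ac peak. There were 53 with 22 or more H3K27ac peaks, and 2 of those 53 (3.77%) had no H3K4me3 peak. These were on chromosome 12 (115640001 to 115920000, 35 H3K27ac peaks) and chromosome 14 (94920001 to 95200000, 26 peaks). Only 1 tile, on chromosome 5 (136920001 to 137200000), was covered by H3K27ac to at least the 35.3% of the Igl window, and it held 7 H3K4me3 peaks. The tiles divided the Igl locus itself into parts covered to 15.1 and 23.4%, both below the value of the window, which was drawn around the locus.

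The kappa and heavy chain loci are the most similar loci, being also made of variable, joining and constant segments. At kappa and the heavy chain, as at Igl, most H3K27ac peaks lay outside H3K4me3. At kappa (chromosome 6, H3K27ac peaks from 67504741 to 70694365) 25 of 198 H3K27ac peaks, or 12.6% (exact 95% interval 8.34 to 18.1%), overlapped H3K4me3. At the heavy chain (chromosome 12, peaks from 114459671 to 117286973) it was 23 of 185, or 12.4% (interval 8.05 to 18.1%). Igl had 0 of 22. The difference between the loci was not tested. Each of the 2 larger windows did hold 26 H3K4me3 peaks, 0.812 and 0.912 per 100 kb. Kappa and heavy chain windows are 3.2 and 2.85 Mb long and include DNA at their edges outside the segments.

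Over the whole windows H3K27ac covered 35.3% at Igl, 16.1% at kappa and 16.2% at the heavy chain. The number of peaks per 100 kb was 7.86 at Igl, 6.19 at kappa and 6.49 at the heavy chain, against 1.15 over the genome. The larger windows average over acetylated and bare parts, so tiles of 280 kb inside them were also read, a comparison chosen after the data were seen. The 10 tiles inside the kappa window were covered to between 6.19 and 28.4% and held 7 to 30 H3K27ac peaks. The 9 tiles inside the heavy chain window were covered to between 0.191 and 31.2% and held 1 to 35 peaks. At each of these loci 4 tiles held 22 or more peaks, the number at Igl. The heavy chain tile with 35 peaks (115640001 to 115920000) was covered to 30.5% and, like Igl, had no H3K4me3 peak. At equal length, parts of the larger loci therefore held more peaks than the Igl window. The 35.3% of that window is not on the same footing as the tiles, because it was drawn around its locus. On the same grid the Igl locus fell into tiles covered to 15.1 and 23.4%, with 5 and 20 H3K27ac peaks. The most covered tiles of kappa and the heavy chain, at 28.4 and 31.2%, were above both. Peaks without H3K4me3 had a median width of 2150 bp at Igl, 1696 bp at kappa and 1492 bp at the heavy chain. Of these peaks the ceiling was reached by 27.3% at Igl, 11.0% at kappa and 7.41% at the heavy chain. The median score did not follow this order: over all H3K27ac peaks of each window it was 335 at Igl, 468 at kappa and 318 at the heavy chain. These differences in width and score were not tested, since peaks of 1 library are not replicates. The smaller surrogate light chain window differed from the 3 in its H3K4me3: it was covered by H3K27ac to 28.9% and by H3K4me3 to 20.6%, where kappa had 1.18% and the heavy chain 1.84%. The kappa and heavy chain values are averages over far longer windows. Tiles of 80 kb inside them were not read, so this contrast was not made at equal length.

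**Figure D5:**
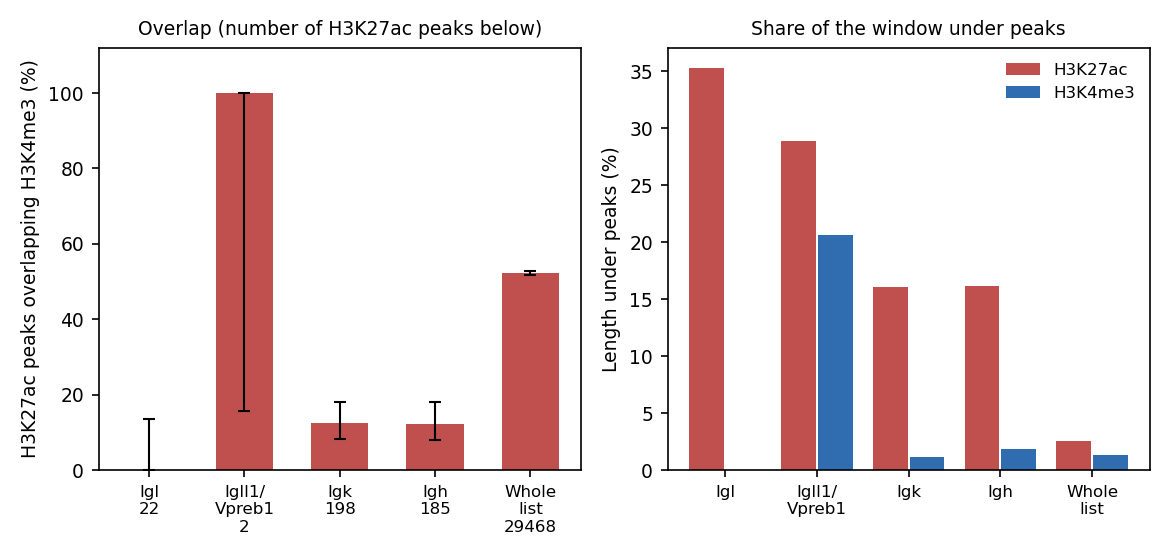
Left, share of H3K27ac peaks that overlap H3K4me3 (%) at the 4 loci and in the whole list, with exact 95% binomial intervals. The number of H3K27ac peaks is below each bar. For Igl, with 0 overlaps, the limit of 13.6% set by 3 counts is drawn. This limit takes neighbouring peaks as separate and does not measure the error for the locus. Right, share of each window under H3K27ac and H3K4me3 peaks (%); the Igl window, shortest of the 3 immunoglobulin loci, has 35.3% under H3K27ac and none under H3K4me3.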

How the data were processed

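The members, windows and comparison loci were chosen with earlier results of these data known. MACS, a program that finds enriched regions, made the peak lists on mm9, per the submitters' processing notes; its version, the aligner, read filters and depth are not given in the sources used. The authors deposited 1 peak list per mark, each called on 1 library, with a score per peak that no header or label defines (lowest value 50.01). Scores were used only within a list. B-lineage marker genes were not checked, since no mm9 annotation was used.

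Positions are counted from 1. Marks overlapped when they shared at least 1 bp. Distances are gaps between edges. Tiles were counted from the first base of each chromosome. Intervals are exact Clopper-Pearson (95%); with 0 overlaps the limit is 3 counts. Peaks named by rule were every H3K4me3 peak, and in each window the 5 widest and 5 highest-scoring H3K27ac peaks (with ties) and those overlapping H3K4me3; other peaks given by position were chosen after their values were seen. Kappa and heavy chain windows were set from known approximate positions. The overlap, distance and joining steps were tested on simulated data. Software was SciPy 1.17.1, pandas 2.3.3 and NumPy 2.4.6 under Python 3.11.15.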

Additional observations from a re-analysis of the deposited data

How the results depend on the processing

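Of 52 alternative values for the number of peaks, covered length, overlap of the marks and stitched length, 48 stayed within 1.5 times the reported value (shares of peaks: within their interval) and 4 moved further. The 48 include every value of 0 for H3K4me3 at Igl (number, covered length and overlap), which no alternative could have changed. With scores of at least 1000 the number of H3K27ac peaks at Igl fell from 22 to 8, and with peaks of a mark within 1000 bp joined it became 12. With the surrogate light chain window shortened by 10 kb at both ends, its H3K27ac peaks became 1 in place of 2, because the site near the edge was lost. Stitching within 5000 bp gave 33.3 kb for the widest Igl region in place of 86.7 kb. The Igl window held 0 H3K4me3 peaks under each alternative run, including windows longer or shorter by 10 kb at both ends. None of these could have given another value, since the nearest H3K4me3 peaks lay 110 and 490 kb outside the window. All H3K27ac peaks of the surrogate light chain window overlapped H3K4me3 under each alternative run. Joining peaks, asking for 50% of the shorter peak or allowing 1000 bp between marks could not have lowered this share. Each H3K4me3 peak there lay wholly inside an H3K27ac peak. No paired analysis was possible because each mark has 1 library and no test was made. Without depth, replicates or the IgG signal, weak H3K4me3 at Igl below the calling threshold was not detectable.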
